A study of Drosophila melanogaster with 27 samples.

Results

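Cytosolic ribosomal protein (RP) genes encode the proteins of the ribosome that translates nuclear messages, and their symbols begin with RpL for the large subunit or RpS for the small subunit. The gene table held 92 such symbols. A gene was included where a probe set of the array was annotated to it alone. Of several such probe sets, the one with the highest mean signal over all arrays was used. This left 41 genes, 25 of the large and 16 of the small subunit, of 11894 genes measured in the same way, and 51 RP symbols were not analysed here, among them RpS3A on chromosome 4. Of the 41 genes, 34 were expressed, meaning a mean log2 signal above 6 in wild type (22 large and 12 small), as were 7378 genes in all. The other 7 (RpL10Aa, RpL22-like, RpL37-2, RpS10a, RpS19b, RpS28-like and RpS28a) lay below that limit. No measured RP gene lies on chromosome 4.

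Each ribosome takes 1 copy of nearly every RP, and the transcripts of these genes are among the most abundant of any cell. In Drosophila, loss of 1 copy of many RP genes gives the Minute phenotype of slow development and short, thin bristles, which makes RP genes the best known dose-sensitive genes of the fly. Several RP genes have a paralogue used mainly in the germline.

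Whole females 0 to 24 h old were hybridised to Affymetrix Drosophila arrays in 9 groups of 3 biological replicates, with 10 females in each. Wild type was y1 w67c23 with 2 copies of chromosome 4. The first and the next of 3 deficiency groups, Df(2L)J-H/+ and Df(2L)ED4651/+, carried 1 copy of a segment of arm 2L, and the last, Df(3L)4470/+, 1 copy of a segment of 3L. All 3 had 2 copies of chromosome 4 and came from crosses of the balanced deficiency to Oregon R, so that the deficiency and the Oregon R parent cannot be told apart against wild type. Their values are given in this order wherever 3 stand together. The haplo 4th group had 1 copy of chromosome 4, from a cross of wild type to a C(4)RM stock, in which both chromosomes 4 are joined. Df(2L)J-H/+ haplo 4th came from Df(2L)J-H/SM5 crossed to the same C(4)RM stock and was picked by the Minute phenotype, while Dp(2;2)Cam3/+ triplo 4th (3 copies of a segment of 2L and of chromosome 4) came from Dp(2;2)Cam3/CyO and C(4)RM and was picked as not Minute. The pof-mutant group (2 copies of chromosome 4) came from its own y1 w67c23; PofD119 stock, and pof-mutant triplo 4th (3 copies) from a cross of that stock to Pof119/CyO; C(4)RM. Pof, which encodes a protein that binds chromosome 4, was at 7.68 ± 0.24 (SD, n = 3) in wild type and at 9.15, 11.01 and 8.95 in the arrays labelled pof-mutant, so its signal was not lower in them.

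Values are log2 signals with each array shifted by a constant, so that the mean of the expressed genes is the same on every array, and differences are relative to that mean. The constants were between 0.16 and 0.39 in the deficiency groups. Without them the median of all expressed genes was -0.25, -0.25 and -0.27 from wild type in the 3 deficiency groups. Arrays of a group correlated least in pof-mutant (r 0.62 to 0.90 over the expressed genes, on their levels) and pof-mutant triplo 4th (0.67 to 0.92). The r was 0.94 to 0.99 in the groups other than these and Dp(2;2)Cam3/+ triplo 4th (0.84 to 0.95). The medians of 13 expressed germline markers, such as bcd and exu, were -1.53, -1.88 and -1.29 from wild type in the 3 deficiency groups and ranged from -0.46 to 1.77 among the pof-mutant arrays. In whole flies, fewer cells of a type and less RNA per cell cannot be told apart.

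The RP transcripts were high and held within a narrow band. Wild type levels of the 34 expressed RP genes lay between 8.94 and 14.02 with a median of 13.52, while the highest value of any probe set on any array was 14.63. The range between the highest and the lowest of the 9 group means had a median of 0.26 over the RP genes and of 1.02 over all expressed genes. The spread between replicates (residual SD) had medians of 0.07 and 0.32. In 29 of 34 RP genes this SD was among the lowest 5% of all expressed genes, and in 24 of 34 the range of group means was. For 63 other genes with wild type levels above 13 the median SD was 0.29 and the median range 1.08, so a narrow band was not shared by every gene of such signal.

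RpL27, a large subunit protein, had the smallest SD of all 7378 genes at 0.049, and RpL32, widely used as a reference transcript in fly work, was next at 0.053. RpL32 was at 13.62, 13.57 and 13.55 in wild type and between 13.49 and 13.88 on all 27 arrays. The smallest ranges of group means were 0.12 for RpL28, 0.17 for RpL29 and 0.17 for RpL17 in the large subunit, and 0.15 for RpS28b, 0.19 for RpS7 and 0.19 for RpS20 in the small subunit. The widest were 0.58 for RpL24-like and 0.50 for RpLP0-like, the only large subunit names at or near 0.5 besides RpL41 at 0.47, and 1.45 for RpS5b in the small subunit. In all, 32 of 34 ranges were under 0.5.

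**Figure D1:**
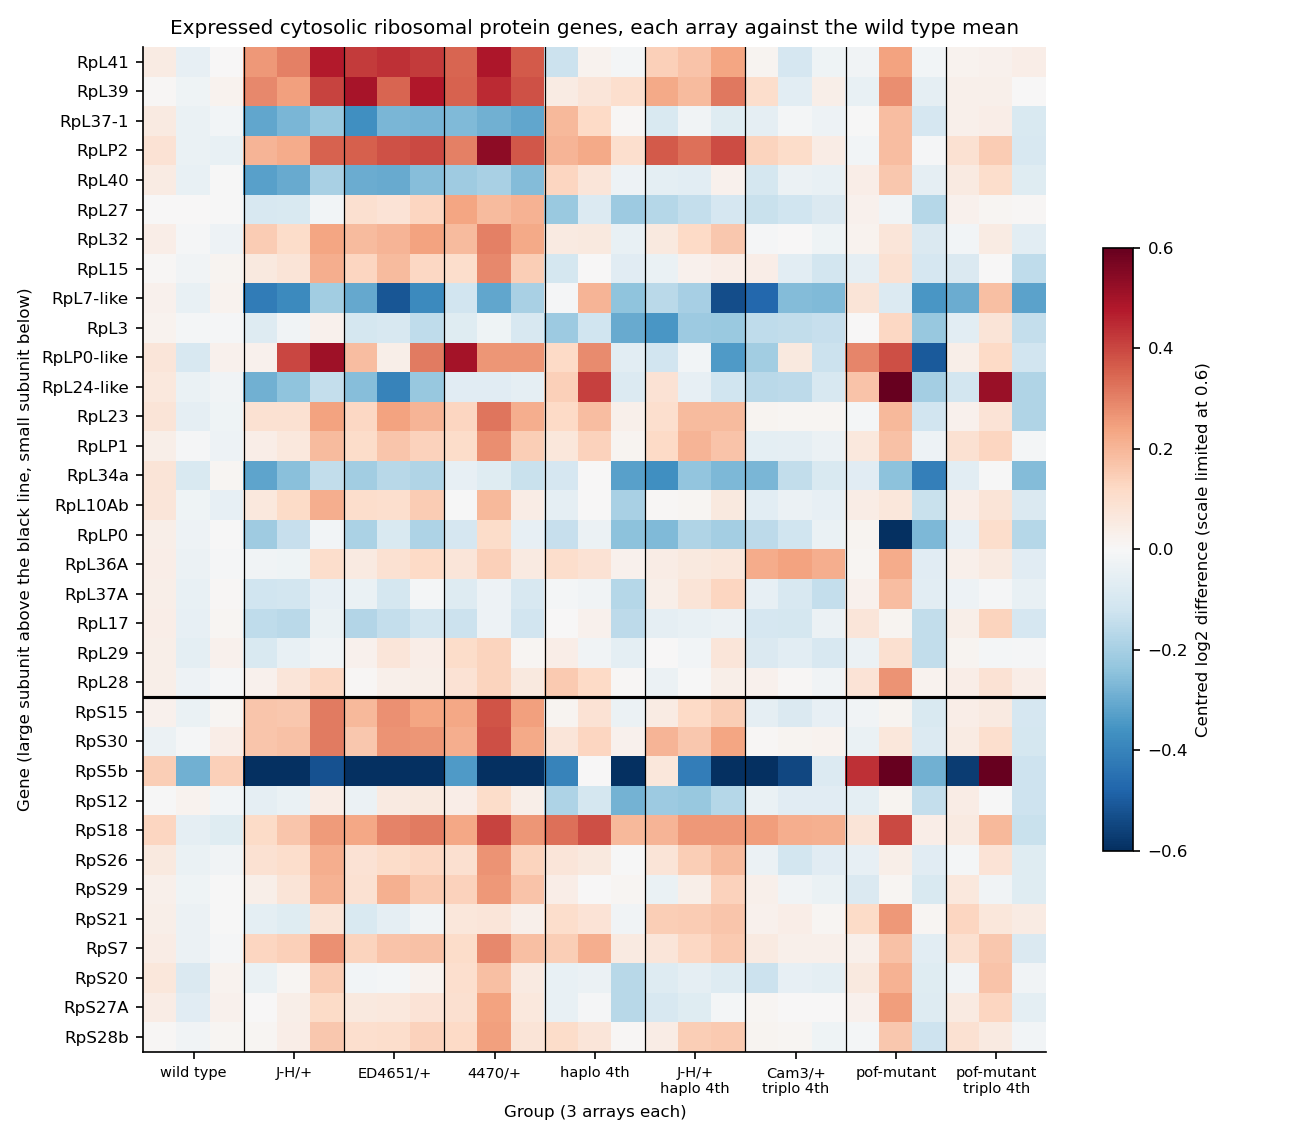
Centred log2 difference from the wild type mean of the 34 expressed RP genes (rows, large subunit above the black line) on each of the 27 arrays (columns, by group). Most cells are near 0, RpS5b varies most (range of its group means 1.45), and RpL39, RpL41 and RpLP2 are above 0 on all 9 deficiency arrays while RpL37-1 and RpL40 are below 0 on them (under quantile normalization RpL41 in Df(2L)J-H/+ turned to -0.043).

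Both subunits were compared array by array through the median difference of their genes from wild type. The large subunit median lay between -0.11 (pof-mutant replicate 3) and 0.17 (pof-mutant replicate 2), and the small subunit median between -0.08 (pof-mutant replicate 3) and 0.25 (Df(3L)4470/+ replicate 2). The median of all expressed genes ranged from -0.04 to 0.26. By deficiency group the large subunit was at -0.00 ± 0.06, 0.06 ± 0.02 and 0.09 ± 0.05 (SD, n = 3 here and below). The small subunit was at 0.09 ± 0.08, 0.11 ± 0.02 and 0.16 ± 0.09 in the same order. These deficiency values are relative to the shifted arrays: without the shift the RP median was -0.18, -0.16 and -0.13, so its sign turned in all 3 groups, where the median of all genes was -0.25, -0.25 and -0.27. Under quantile normalization the RP median was -0.15, -0.13 and -0.11 and that of all genes -0.09, -0.07 and -0.07, so which of them was higher also depended on the scale.

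In the groups with 1 or 3 copies of chromosome 4 the subunit medians were also small. They were 0.02 ± 0.07 (large) and 0.04 ± 0.04 (small) in haplo 4th, 0.00 ± 0.03 and 0.11 ± 0.05 in the same with the J-H deficiency, -0.06 ± 0.01 and -0.01 ± 0.02 in Dp(2;2)Cam3/+ triplo 4th, and 0.00 ± 0.08 and 0.02 ± 0.09 in pof-mutant triplo 4th. The pof-mutant group was at 0.03 ± 0.14 and 0.03 ± 0.13. Within an array, where the shift cancels, the large minus small difference lay between -0.13 (Df(2L)J-H/+ haplo 4th replicate 2) and 0.01 (pof-mutant replicate 1). The subunit medians thus stayed within 0.13 of each other on each of the 27 arrays. The interquartile range of the RP genes on an array was 0.03 to 0.29, against 0.14 to 2.05 for all expressed genes.

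**Figure D2:**
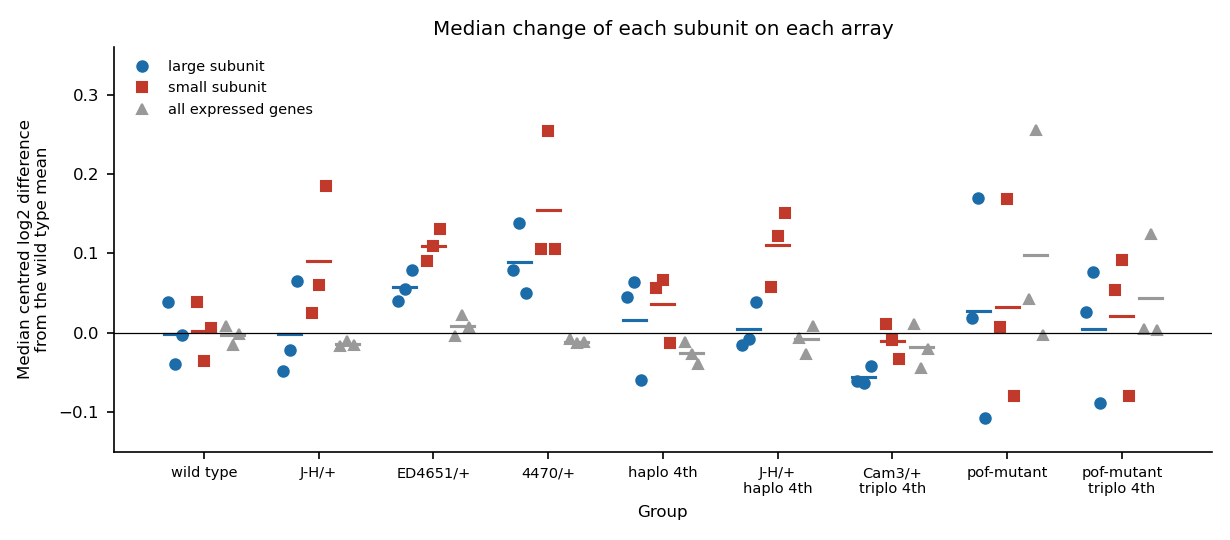
Median centred log2 difference from wild type of the large subunit genes, the small subunit genes and all expressed genes, each point 1 array, by group, with the mean as a bar. The large subunit points lie between -0.11 and 0.17 and the small subunit points between -0.08 and 0.25, and the shift that removes the arrays' mean sets the sign in the deficiency groups.

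When all 9 groups were tested together (limma F-test, adjusted over all 7378 genes), 9 of 34 RP genes differed among groups, while 61.7% of all expressed genes and 32 of the 63 other genes above 13 did (50.8%). The 9 were RpL41, RpL39, RpL37-1, RpLP2, RpL40, RpS15, RpL27, RpS30 and RpL32. Since arrays of both pof-mutant groups varied most, the fit was repeated without them, and 17 of 34 RP genes then differed, against 65.8% of all genes.

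In each deficiency group a few RP genes of the large subunit moved, in both directions. In Df(2L)J-H/+, 2 of 34 RP genes rose and 2 fell, where 11% and 6.83% of all expressed genes did so. In Df(2L)ED4651/+, 3 rose and 2 fell, against 13% and 8.86% of all genes. In Df(3L)4470/+, 5 rose and 1 fell, against 9.76% and 5.29%. Of these 6 shares, 5 of 34 in the last group was above its background and the others were below. Without the shift, 0 of 34 rose in each group and 10, 10 and 6 fell, so the split between higher and lower depends on the scale. With both pof-mutant groups left out of the fit, 7, 8 and 13 of 34 RP genes rose and 4, 5 and 2 fell, while the background grew to 25.7%, 27% and 23.4% higher and 23.7%, 26.2% and 20.2% lower. The 13 of 34 that rose in the last group were again a larger share than its background, and the other 5 counts were smaller. At an unadjusted p under 0.05, 9, 11 and 12 of 34 genes differed in the fit of all arrays. The share of all genes at that unadjusted level was not counted, so these and the later unadjusted counts have no background beside them. Within 0.25 of wild type were 26, 25 and 25 of 34 RP genes, and 35.0%, 32.7% and 37.1% of all genes.

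RpL41 and RpL39 encode very small, basic proteins of the large subunit. RpL41 was at 14.06, 13.97 and 14.02 in wild type, at 14.28, 14.32 and 14.49 in Df(2L)J-H/+, at 14.44, 14.45 and 14.44 in Df(2L)ED4651/+ and at 14.36, 14.50 and 14.38 in Df(3L)4470/+. All 9 deficiency arrays were above all 3 wild type arrays. The differences were 0.35, 0.43 and 0.40 with an SE of 0.09 (limma adjusted p 0.017, 0.0041 and 0.0071), although under quantile normalization the value in Df(2L)J-H/+ turned to -0.043. RpL39 was at 13.34, 13.31 and 13.35 in wild type, at 13.62, 13.58 and 13.74 in Df(2L)J-H/+, at 13.83, 13.68 and 13.81 in Df(2L)ED4651/+ and at 13.69, 13.78 and 13.71 in Df(3L)4470/+. The groups did not overlap, and it rose by 0.31, 0.44 and 0.39 (SE 0.10, limma adjusted p 0.033, 0.0039 and 0.0094).

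RpLP2 belongs to the acidic stalk of the large subunit, on which elongation factors dock, together with RpLP1 and the stalk base RpLP0. RpLP2 was at 13.57, 13.44 and 13.44 in wild type, at 13.84, 13.86 and 13.88 in Df(2L)ED4651/+ and at 13.79, 14.02 and 13.86 in Df(3L)4470/+. It was higher on all 6 of these deficiency arrays, by 0.38 and 0.40 (SE 0.10, limma adjusted p 0.010 and 0.0080), and was at 0.26 in Df(2L)J-H/+, which did not pass in the fit of all arrays but did without the pof-mutant groups (limma adjusted p 0.011). Its partners were not called in any of the 3 groups in the fit of all arrays, with RpLP1 at 0.10, 0.14 and 0.18 and RpLP0 at -0.12, -0.16 and -0.01. On an array, RpLP2 minus RpLP0 was between 0.36 and 0.59 on all 9 deficiency arrays relative to wild type, whose own arrays lay between -0.04 and 0.05. It was not confined to these groups: it was 0.51 to 0.63 in the haplo 4th flies with the J-H deficiency, 0.26 to 0.34 in haplo 4th, 0.08 to 0.29 in Dp(2;2)Cam3/+ triplo 4th and -0.03 to 1.07 in pof-mutant. In pof-mutant triplo 4th it was 0.05 to 0.14.

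RpL37-1, of a zinc-binding family, and RpL40, made as a fusion with ubiquitin, moved the other way. RpL37-1 was at 13.29, 13.20 and 13.23 in wild type, at 12.93, 12.97 and 13.01 in Df(2L)J-H/+, at 12.87, 12.97 and 12.96 in Df(2L)ED4651/+ and at 12.98, 12.95 and 12.93 in Df(3L)4470/+. All 9 deficiency arrays were below wild type, and it fell by 0.27, 0.31 and 0.29 (SE 0.09, limma adjusted p 0.044, 0.022 and 0.037). RpL40 was at 13.41, 13.32 and 13.36 in wild type. Its arrays were at 13.04, 13.06 and 13.17 for Df(2L)J-H/+ and at 13.07, 13.06 and 13.11 for Df(2L)ED4651/+. It fell by 0.27 and 0.28 (SE 0.09, limma adjusted p 0.039 and 0.029), with no overlap, and was at -0.22 in Df(3L)4470/+, which did not pass in the fit of all arrays but did without the pof-mutant groups (limma adjusted p 0.016).

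In the fit of all arrays, the deficiency group with small subunit genes past the threshold was Df(3L)4470/+. RpS15, a protein of the small subunit head, was at 13.53, 13.46 and 13.51 in wild type and at 13.73, 13.88 and 13.75 in Df(3L)4470/+, higher by 0.28 (SE 0.09, limma adjusted p 0.031). RpS30, made as a fusion with a ubiquitin-like protein, was at 13.03, 13.06 and 13.11 in wild type and at 13.28, 13.45 and 13.29 in Df(3L)4470/+, higher by 0.28 (SE 0.09, limma adjusted p 0.041), though it turned to -0.037 under quantile normalization and to -0.13 when its other probe set, of a wild type level of 7.87, took its place. Neither gene overlapped wild type. Their values in Df(2L)J-H/+ (0.21 and 0.22) and Df(2L)ED4651/+ (0.24 and 0.23) did not pass in that fit but did when the pof-mutant groups were left out (limma adjusted p 0.011 to 0.019). RP genes were also tested in each deficiency against the mean of the other 2, where limma called 0 of 34 in either direction in each and 1, 0 and 1 had an unadjusted p under 0.05, so the deficiency groups were not shown to differ. The background there was 0.38%, 0.108% and 0.0813% higher and 0.637%, 0.285% and 0.325% lower.

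The gap between a pair of RP genes on an array does not depend on the shift, unlike the direction of each gene's move. Without the shift 0 of 34 RP genes were called higher in each deficiency group. Both pairs below were taken from genes already called in opposite directions in deficiency groups, so a gap above 0 there was set by the choice. RpL41 minus RpL40, a pair chosen after their values were seen and given as a description, was 0.59, 0.60 and 0.67 above its wild type mean on the Df(2L)J-H/+ arrays, 0.72, 0.74 and 0.67 in Df(2L)ED4651/+ and 0.56, 0.68 and 0.63 in Df(3L)4470/+. Wild type arrays lay within 0.004 of 0. In Df(2L)J-H/+ haplo 4th the values were 0.20, 0.24 and 0.21, below those of the other deficiency groups and above wild type. The haplo 4th, Dp(2;2)Cam3/+ triplo 4th and both pof-mutant groups ranged from -0.26 to 0.12. RpL39 minus RpL37-1 gave 0.58 ± 0.06, 0.75 ± 0.12 and 0.68 ± 0.06 in the 3 deficiency groups and 0.31 ± 0.09 in Df(2L)J-H/+ haplo 4th.

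**Figure D3:**
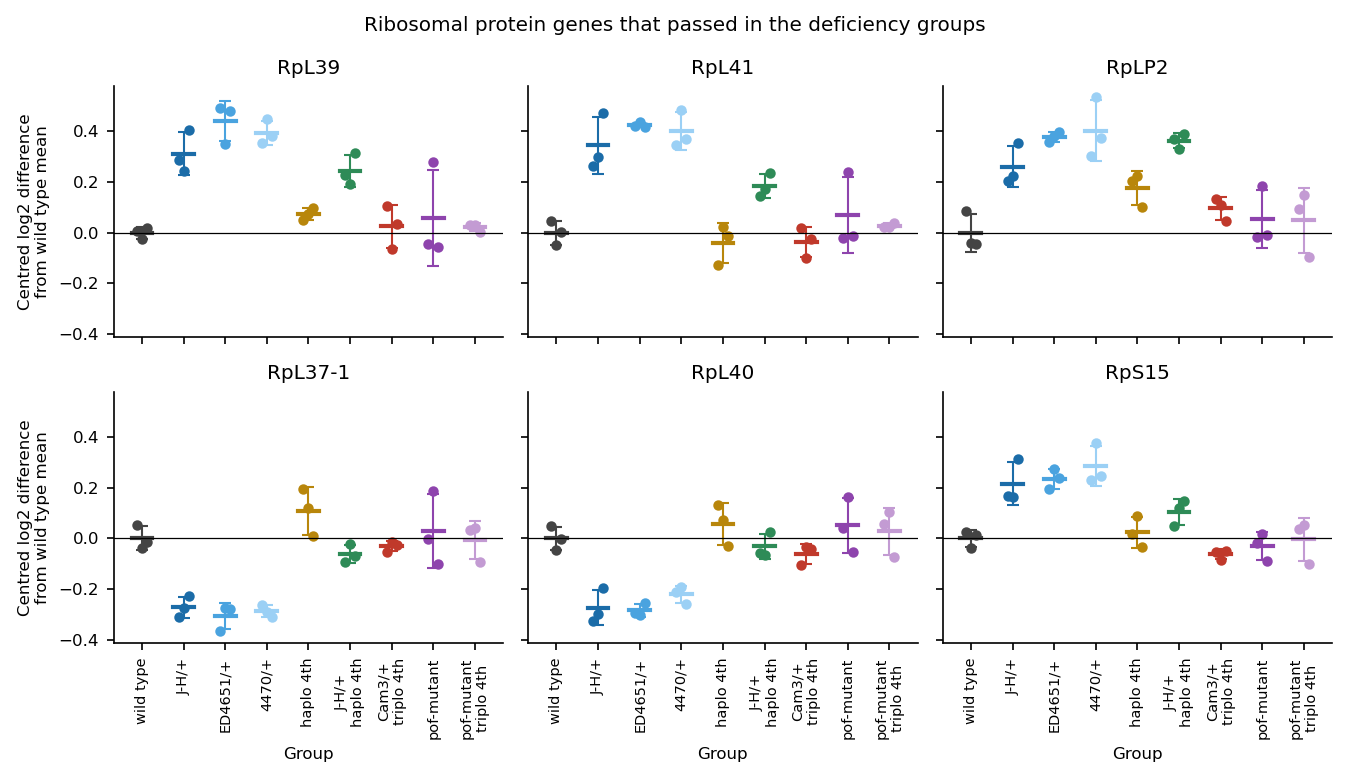
Centred log2 difference from the wild type mean on every array, by group, with mean and SD, for RpL39, RpL41, RpLP2, RpL37-1, RpL40 and RpS15. Each passed the test in at least 1 comparison. RpL41, RpL39 and RpLP2 are higher and RpL37-1 and RpL40 lower in the deficiency groups than in wild type, and the arrays of haplo 4th and the pof-mutant groups lie near wild type. The levels of RpL41 behind its points were 14.28 to 14.50 in the deficiency groups against 13.97 to 14.06 in wild type. Under quantile normalization RpL41 in Df(2L)J-H/+ turned to -0.043. RpS30, which also passed in Df(3L)4470/+ but turned to -0.037 under that normalization, is not drawn.

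The germline markers moved with these groups. They were lower on all 9 deficiency arrays, by 0.79 to 2.09 in their median, with summed levels of 11.85 to 13.19 against 13.76 to 14.22 in wild type. The median of 6 flight muscle markers was higher by 0.56 to 0.85 on these arrays. By limma 5, 7 and 1 of the 13 germline markers fell, where 6.83%, 8.86% and 5.29% of all genes did. Of the flight muscle markers 0 rose in each group, against 11%, 13% and 9.76% of all genes. All 8 male markers were below the limit, at 5.63 or less. Of 12 follicle cell eggshell genes 2, 1 and 0 fell, with medians of -2.34, -2.15 and -1.95, where 6.83%, 8.86% and 5.29% of all genes fell. The germline marker median also varied within groups. Over the 27 arrays' deviations from their group means, Pearson's r with it was 0.06 for RpLP2, 0.09 for RpL41, 0.12 for RpL39, 0.34 for RpL40 and 0.37 for RpL37-1. Spearman's rho was 0.04, 0.04, -0.00, 0.31 and 0.28. Permutation p was 0.18 or more for each of these, and 0.21 or more after adjustment over 7365 genes. Without the 2 arrays farthest from the median the same r values were 0.17, 0.27, 0.37, 0.43 and 0.40. Over all arrays with the differences between groups kept in, r was -0.56, -0.48, -0.54, 0.67 and 0.61 in the same order of genes. The part of cell composition in the deficiency results was not tested.

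RpS29, a small zinc-binding protein of the small subunit, gave different answers by probe set, which was noticed after the values were seen. Its probe set used above was at 0.11, 0.15 and 0.19 in the 3 deficiency groups and was not called in the fit of all arrays. A second probe set, also annotated to RpS29 alone, was at 13.90, 13.73 and 13.82 in wild type, at 13.12, 13.25 and 13.32 in Df(2L)J-H/+, at 13.25, 13.28 and 13.28 in Df(2L)ED4651/+ and at 13.20, 13.42 and 13.21 in Df(3L)4470/+. It was lower on all 9 deficiency arrays, by 0.59, 0.54 and 0.54 (SE 0.09, limma adjusted p 0.00034, 0.00050 and 0.00054). These falls were larger than those of RpL37-1 and RpL40, and the counts and ranges given above leave this probe set out. In Df(2L)J-H/+ haplo 4th it was 0.12 above wild type (SE 0.09, limma adjusted p 0.41) and 0.71 above Df(2L)J-H/+ (SE 0.09, limma adjusted p 5.9e-05). Which transcripts or alleles each probe set reads was not tested.

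The RP genes lay near wild type in both haplo 4th groups and in Dp(2;2)Cam3/+ triplo 4th. Each of these groups had a C(4)RM parent, and the last also carried the 2L duplication. None of them thus differed from wild type in chromosome 4 alone. In haplo 4th 0 of 34 RP genes rose and 0 fell by limma, against 2.44% and 1.41% of all genes, and 4 had an unadjusted p under 0.05. In Df(2L)J-H/+ haplo 4th 1 rose and 0 fell, against 5.61% and 4.3%, with 7 at an unadjusted p under 0.05. That gene was RpLP2, at 13.85, 13.82 and 13.87, above all wild type arrays by 0.36 (SE 0.10, limma adjusted p of 0.022). In Dp(2;2)Cam3/+ triplo 4th 0 rose and 0 fell, against 2.02% and 1.29%, and 2 had an unadjusted p under 0.05. Within 0.25 of wild type were 32, 29 and 32 of 34 RP genes, and 49.1%, 41.7% and 52.6% of all genes. Without the pof-mutant groups 1 rose and 2 fell in haplo 4th (background 12.7% and 9.27%), namely RpS18 at 0.30, RpL3 at -0.21 and RpS12 at -0.19. In that fit 4 rose and 4 fell in the haplo 4th flies with the J-H deficiency (18.2% and 15.9%), and 1 rose and 0 fell in Dp(2;2)Cam3/+ triplo 4th (9.37% and 7.81%), with RpL36A, described below, as the 1 gene.

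Direct contrasts among these groups also called 0 of 34 RP genes by limma. Between Df(2L)J-H/+ haplo 4th and haplo 4th the background was 0.163% higher and 0.38% lower, and 1 RP gene had an unadjusted p under 0.05. Against Df(2L)J-H/+ it was 1.92% and 2.53%, with 5 RP genes at an unadjusted p under 0.05. Besides chromosome 4, the groups of this contrast differ in a parent, C(4)RM against Oregon R. This contrast had 2 RP genes higher and 2 lower without the pof-mutant groups (background 7.75% and 9.91%): RpL40 was at 0.24 and RpL37-1 at 0.21, opposite to their moves in Df(2L)J-H/+, with RpLP0-like at -0.47 and RpL3 at -0.24. Between Dp(2;2)Cam3/+ triplo 4th and haplo 4th, 3 copies of chromosome 4 against 1, it was 1.15% and 0.962%, with 1 RP gene. The first and the last of these contrasts called 0 RP genes without the pof-mutant groups as well (background 1.83% and 2.4%, and 4.39% and 5.91%). The difference between flies with 1 and 2 copies of chromosome 4 was not shown to depend on the J-H deficiency for any RP gene (limma interaction, 0 of 34 called, background 0.298% in each direction). At an unadjusted p under 0.05 was 1 gene, RpLP0-like at -0.58 (SE 0.26, p 0.037 before adjustment in limma). Both groups with 1 copy had a C(4)RM parent, Df(2L)J-H/+ an Oregon R parent and wild type neither. The loss of chromosome 4 and these parents cannot be told apart.

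RpL27, which passed the F-test but no single comparison in the fit of all arrays, was at 13.13, 13.13 and 13.12 in wild type, at 13.36, 13.31 and 13.33 in Df(3L)4470/+ and at 12.90, 13.04 and 12.91 in haplo 4th. Its arrays in the last of these groups lay below all wild type arrays and its arrays in Df(3L)4470/+ above them, with an F-test adjusted p of 0.0091 in limma, and differences of 0.21 and -0.17 from wild type.

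The arrays labelled pof-mutant and pof-mutant triplo 4th gave no RP calls. By limma 0 of 34 RP genes rose and 0 fell in pof-mutant, against 1.36% and 2.43% of all genes, and 2 had an unadjusted p under 0.05. In pof-mutant triplo 4th 0 rose and 0 fell, against 0.447% and 0.962%, with 0 at an unadjusted p under 0.05. Between these groups 0 RP genes were called, as were 0% of all genes, with 1 RP gene at an unadjusted p under 0.05. Within 0.25 of wild type were 31 and 34 of 34 RP genes, and 30.4% and 62.3% of all genes. One array stood out for the stalk base RpLP0, which was at 13.83, 12.93 and 13.55 in pof-mutant and at 13.85, 13.78 and 13.81 in wild type.

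The measured RP genes inside a run of genes with a changed copy number numbered 2. Each segment was located as the run of neighbouring genes, RP genes left out, whose values moved together in that group. RpL10Ab, a large subunit gene on 3L, lay in the run of Df(3L)4470/+ from Noc1 to CG42397, at position 46 of 50 genes, between CG5946 and CG32095. That it had 1 copy in those flies is taken from this place near the end of the run and was not tested. It was at 13.43, 13.63 and 13.48 in Df(3L)4470/+ and at 13.50, 13.41 and 13.38 in wild type, so the groups overlapped. The difference was 0.08 (SE 0.09, 95% interval -0.11 to 0.27, limma adjusted p 0.58), at 106% of wild type, and turned to -0.18 without the shift and to -0.20 under quantile normalization.

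Since the other 2 deficiency groups share the Oregon R cross, RpL10Ab was also set against the mean of these, in which 3L is not deficient. The difference was -0.05 (SE 0.08, 95% interval -0.21 to 0.12, limma adjusted p 1.0), and a loss in proportion to copies, -1 on the log2 scale, lay outside both intervals. The other 49 genes of the run had a mean of -0.68 against wild type, with 40 of 49 below 0, and of -0.73 against the other deficiencies, with 20 called lower. The neighbour CG5946 was at -0.97 from wild type and -0.88 from the other deficiencies (SE 0.18, limma adjusted p 0.024). None of the 4 genes on the far side was called against the other deficiencies, with CG32095 at -0.55 (SE 0.38), prc at 0.48, Muc68E at -0.74 and CG42397 at -0.89, so the run's end beyond RpL10Ab is not secure. No other gene of that run had a wild type level above 12, so no gene of like signal in it could be set beside RpL10Ab, and how far the array compresses a loss at this level was not tested.

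RpL36A, a large subunit gene on 2L, lay in the run of Dp(2;2)Cam3/+ triplo 4th from Ugt37B1 to LManVI and thus had 3 copies. It was at 13.78, 13.80 and 13.78 there and at 13.60, 13.53 and 13.55 in wild type, with no overlap, a difference of 0.23 (SE 0.09, 95% interval 0.04 to 0.41) or 117% of wild type. The limma p was 0.019 before and 0.19 after adjustment, so it did not pass, but it did when both pof-mutant groups were left out of the fit (SE 0.06, limma adjusted p 0.022). Of the arrays of the other groups 1, pof-mutant replicate 2 at 13.78, reached the level of these. A gain in proportion to copies, 0.58 on the log2 scale, lay above the interval.

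The other 201 genes of that run had a mean of 0.57, with 18 below 0. Of its genes with a wild type level above 12, COX5B was at 0.60 and muc at 0.72, both enzyme subunits of mitochondria, while CG7214 was at 0.15, CG7203 at 0.07 and Rack1, which encodes a protein bound to the small subunit, at -0.02. The RpL36A value was within the range of these 5 genes. RpS21 lay 2 protein-coding genes outside the run of Df(2L)ED4651/+ and was at -0.05 in that group. RpS13, also in the Cam3 run, was not analysed here.

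**Figure D4:**
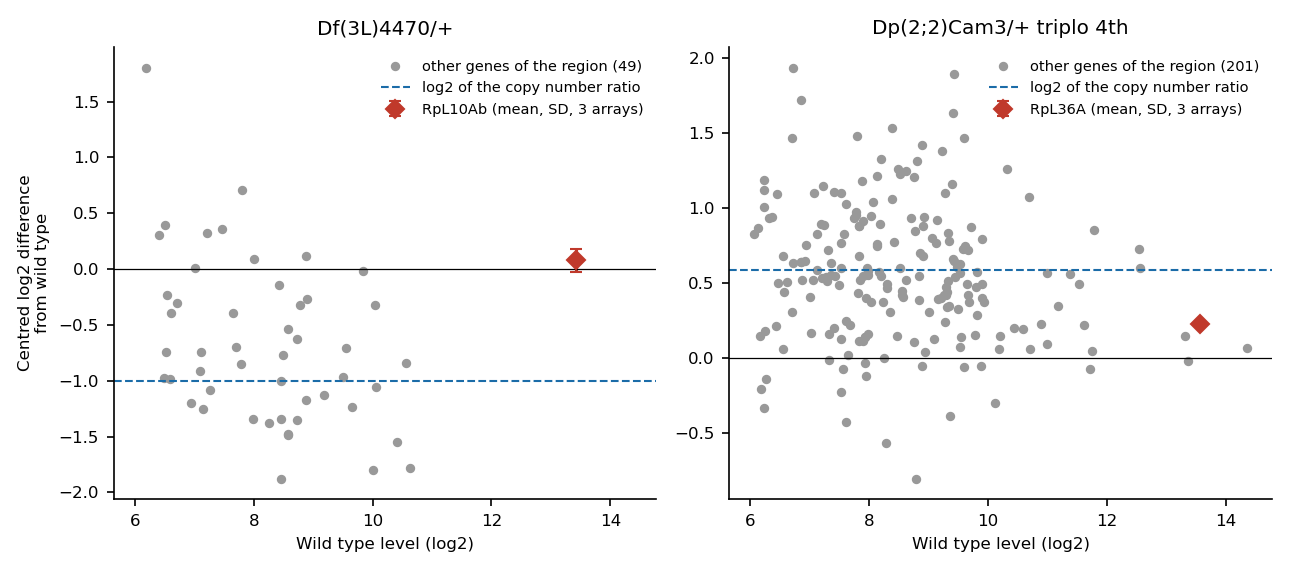
Centred log2 difference from wild type against wild type level for the genes of the run located in Df(3L)4470/+ (deficiency) and in Dp(2;2)Cam3/+ triplo 4th (duplication), with the RP gene in red (bar: SD of its 3 arrays) and the log2 copy number ratio as a dashed line. RpL10Ab is at 0.08 (-0.18 without the shift) among genes with a mean of -0.68, and RpL36A at 0.23 among genes with a mean of 0.57.

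RpS5b, the ovary-enriched paralogue of the small subunit protein S5, was the most variable RP gene. It was at 12.92, 12.48 and 12.92 in wild type, at 11.79, 11.96 and 12.25 in Df(2L)J-H/+, at 11.85, 11.54 and 11.91 in Df(2L)ED4651/+, at 12.43, 12.06 and 12.18 in Df(3L)4470/+, at 12.84, 12.36 and 11.35 in Df(2L)J-H/+ haplo 4th, at 11.03, 12.23 and 12.69 in Dp(2;2)Cam3/+ triplo 4th and at 13.21, 13.96 and 12.48 in pof-mutant. Replicates of 1 group thus differed by more than 1 log2 unit, with an SD of 0.54. All 9 deficiency arrays lay below all wild type arrays. The differences were -0.77, -1.0 and -0.55, and in Df(2L)ED4651/+ (95% interval -1.87 to -0.14, limma adjusted p 0.086) as in the others it did not pass in the fit of all arrays, while without the pof-mutant groups Df(2L)ED4651/+ did (limma adjusted p 0.028).

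The level of RpS5b followed the germline markers array by array. Over the 27 arrays, with each value taken as its deviation from the group mean, it correlated with the median of the 13 markers at Pearson's r 0.967 and Spearman's rho 0.929 (permutation p 1e-05 for each, the smallest that 100000 permutations within groups can give). After adjustment over the 7365 expressed genes tested in this way, other than the markers, p was 0.00020 and 0.00018. Without the 2 arrays farthest from the median, Dp(2;2)Cam3/+ triplo 4th replicate 1 and Df(2L)J-H/+ haplo 4th replicate 3, r was 0.952. This relation was looked for after the values were seen.

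By the same measure most expressed genes moved with the germline marker median of an array and most RP genes did not pass. Of the 7365 genes 71.0% correlated with the germline median in either direction after adjustment, 36.4% positively. Of the 34 RP genes 5 did so positively and 0 negatively. Beside RpS5b they were RpL7-like (r 0.747, rho 0.828, adjusted permutation p 0.0025 and 0.00040), RpL24-like (0.671 and 0.679, 0.0024 and 0.0024), RpLP0-like (0.577 and 0.626, 0.017 and 0.0064) and RpS20 (0.566 and 0.485, 0.016 and 0.038). The 3 genes whose names end in -like are named for RPs, but their yeast counterparts are factors that help to assemble the large subunit and leave it again. RpS20 is an ordinary protein of the small subunit.

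Other paralogues used in the germline were below the limit. As deposited, RpS19b was at 4.68, 4.74 and 4.52 in wild type and the Df(2L)J-H/+ arrays were at 5.42, 5.32 and 5.18. RpS10a was at 4.78, 4.97 and 5.01 in wild type against 5.31, 5.40 and 5.50. Neither gene's arrays overlapped between these groups, but none reached the limit of 6 used for expression, and such weak signals can include background. RpL10Aa, RpL22-like, RpL37-2, RpS28a and RpS28-like were not called in any deficiency group.

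**Figure D5:**
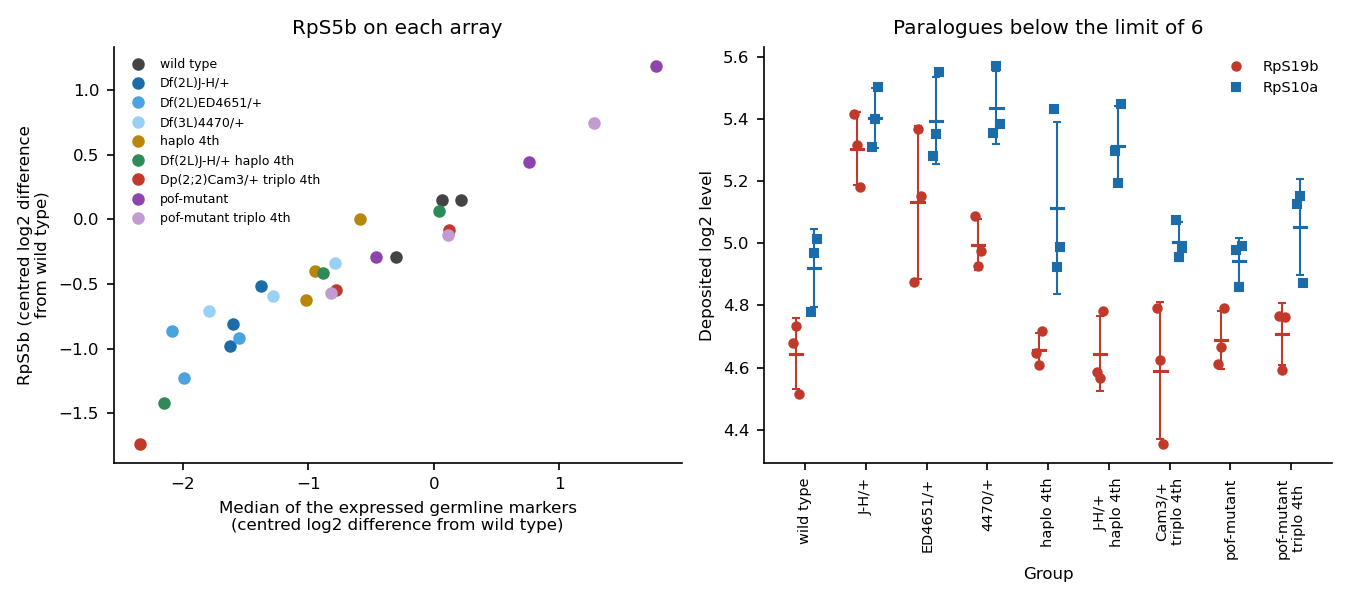
Left, RpS5b against the median of the 13 expressed germline markers, both as centred log2 difference from wild type, each point 1 array (r 0.967 within groups). Right, deposited log2 levels of RpS19b and RpS10a by group with mean and SD, all below 6, and higher in Df(2L)J-H/+ (5.18 to 5.50) than in wild type (4.52 to 5.01).

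Other gene sets of protein synthesis were counted in the same way, with no test of a set against the RP genes. Mitochondrial ribosomal proteins, which are encoded in the nucleus and build the separate ribosome of mitochondria, were expressed for 69 of 73 listed genes at wild type levels of 8.16 to 10.84. Of these, 12, 33 and 25 rose and 1, 0 and 0 fell in the 3 deficiency groups, with medians of 0.14, 0.34 and 0.26, where 11%, 13% and 9.76% of all genes rose. In the other 5 groups 1 to 3 rose and 0 fell, where 0.447% to 5.61% of all genes rose and 0.962% to 4.3% fell. In Df(2L)ED4651/+, mRpL28 was at 0.93 (SE 0.15), mRpS14 at 0.92 (SE 0.14) and mRpL9 at 0.84 (SE 0.12), with limma adjusted p of 0.00040, 0.00022 and 0.00016. The cytosolic RP medians in the same 3 groups were 0.06, 0.09 and 0.12. The mitochondrial counts and medians are on the shifted scale too, with constants of 0.16 to 0.39 in these groups, and were not taken without the shift. Germline markers were lower in these groups, and their part in the mitochondrial values was not tested.

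Ribosome biogenesis factors process ribosomal RNA and assemble subunits in the nucleolus. Of 24 expressed of 29 listed, 0 rose in any group, and 1, 4 and 0 fell in the 3 deficiency groups, so that against the shares of all genes only the 4 of 24 in Df(2L)ED4651/+ were above (8.86%). In the haplo 4th flies with the J-H deficiency 3 fell (4.3% of all genes), and 1 in Dp(2;2)Cam3/+ triplo 4th (1.29%). The medians of the list in these 5 groups were -0.21, -0.39, -0.18, -0.43 and -0.54. In the haplo 4th flies with the J-H deficiency, Nop60B, the pseudouridine synthase of ribosomal RNA, was at -1.41 (SE 0.37, limma adjusted p 0.020) and mod, a nucleolar protein, at -0.80 (SE 0.23, limma adjusted p 0.032). In Df(2L)ED4651/+, kz, an RNA helicase, was at -1.23 (SE 0.29, limma adjusted p 0.0052) and Gar1, a partner of Nop60B, at -0.84 (SE 0.22, limma adjusted p 0.012). The germline marker medians were -1.0 and -1.88 in the groups of these 4 genes, and their part in these values was not tested.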

How the data were processed

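Total RNA of whole females was hybridised to Affymetrix Drosophila arrays (version 2). The deposited table holds log2 signals of 18952 probe sets on 27 arrays, which the authors normalised and summarised by RMA (version not given in the sources used here). The paper describes testis arrays in the same passage and does not state whether they were normalised jointly with these. The build of the array annotation was not stated, so no coordinates are given. No column of sample values was left unused (0).

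Of the probe sets 13647 had 1 gene symbol, 402 several and 4903 none. A gene was represented by its probe set with the highest mean, giving 11894 genes, of which 7378 were expressed (wild type mean above 6). Of the 41 RP probe sets 14 end in _s_at and can read related transcripts, 4 in _a_at and 23 in plain _at. Arrays were centred on the mean of the expressed genes. limma 3.58.1 in R 4.3.3 (lmFit and eBayes, 1 mean per group, all 27 arrays) gave differences, moderated SEs and p-values, adjusted by the Benjamini-Hochberg method over all expressed genes with a threshold of 0.05, and was tested on simulated data. With 3 against 3 arrays an exact permutation test cannot go below 0.1, so none was used for single genes. Precision is limited by 3 arrays a group.

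The rule for named RP genes took all in an aneuploid run, letter and -like paralogues, genes below the limit, up to 5 per direction and comparison among those called without overlap, and the 3 smallest and 3 largest ranges of each subunit. Of each pathway list up to 4 called genes were named. Runs of at least 20 neighbouring genes were found in gene order of the RefSeq table, with values limited to 2 log2 units either way. Members and lists were chosen with earlier results of these data known. Alternatives were centring on the median, no centring, quantile normalization, no filter or a limit of 8, averaged probe sets, probe sets without _s_at and _x_at, a replicate block and leaving out each array. Those chosen after seeing the data were leaving out both pof-mutant groups, no filter with no centring, moderation by level, each deficiency against the other 2, the interaction, the second probe sets and the germline correlations. Python 3.11.15, pandas 2.3.3 and numpy 2.4.6 were used for the rest.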

Additional observations from a re-analysis of the deposited data

Results flagged for a closer look

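Some RP genes and probe sets that the comparisons above leave out passed in limma. Genes below the limit were fitted with no filter on low values and no centring. RpS10a, a paralogue below the expression limit, was above wild type as deposited by 0.48 in Df(2L)J-H/+, 0.47 in Df(2L)ED4651/+, 0.52 in Df(3L)4470/+ and 0.39 in Df(2L)J-H/+ haplo 4th (SE 0.12, adjusted p 0.010, 0.011, 0.0071 and 0.044). RpS19b, also below the limit, was above wild type by 0.66, 0.49 and 0.35 in the 3 deficiency groups in the same order (SE 0.12, limma adjusted p 0.0011, 0.0086 and 0.048). In Df(2L)J-H/+ haplo 4th it was 0.66 below Df(2L)J-H/+ (-0.66, limma adjusted p 0.0029), where 1.54% of all genes were lower. The germline marker medians were -1.53, -1.88 and -1.29 in the deficiency groups, but these are centred values of expressed genes. The values of RpS10a and RpS19b are not centred, so the scales differ and the signs cannot be set against each other directly.

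A second probe set of RpL3, with a wild type level of 8.53 and thus above the limit, was taken on the centred scale instead. It was higher by 0.62 in Df(2L)J-H/+ (SE 0.19, limma adjusted p 0.033), where the probe set used for RpL3, at 13.60, was at -0.02.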

How the results depend on the processing

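Counts are RP genes called higher or lower than wild type, in the 3 deficiency groups in the order of the report, unless another group is named. Centring on the median gave 4, 7 and 9 higher, 22 in the F-test and 1 lower in Df(2L)J-H/+ haplo 4th. No centring gave 0, 0 and 0 higher, 10, 10 and 6 lower, 0 higher and 3 lower in Df(2L)J-H/+ haplo 4th, 1 higher in it than in Df(2L)J-H/+, and 15 in the F-test. Quantile normalization gave 0, 0 and 0 higher, 12, 11 and 6 lower, 4 lower in Df(2L)J-H/+ haplo 4th, 2 higher in it than in Df(2L)J-H/+, and 17 in the F-test. RpL10Ab turned to -0.18 with no centring and -0.20 with quantile normalization, which also turned RpS30 in Df(3L)4470/+ to -0.037 and RpL41 in Df(2L)J-H/+ to -0.043. With no filter 9, 11 and 12 were higher, 2 lower in Df(3L)4470/+, 2 higher in Df(2L)J-H/+ haplo 4th, 1 lower in it than in Df(2L)J-H/+, and 16 passed the F-test. With neither filter nor centring 12, 13 and 7 were lower and 2 higher in Df(3L)4470/+, 2 were higher and 4 lower in Df(2L)J-H/+ haplo 4th, 4 higher and 1 lower in it than in Df(2L)J-H/+, and 23 passed the F-test, with RpL10Ab at -0.18. A limit of 8 left 0 lower in Df(2L)J-H/+ and in Df(3L)4470/+. Without _s_at and _x_at probe sets RpS30 turned to -0.13 and 3 were higher in Df(3L)4470/+. Moderation by level gave 6 higher in Df(2L)ED4651/+. Without both pof-mutant groups 7, 8 and 13 were higher and 4, 5 and 2 lower, 1 was higher and 2 lower in haplo 4th, 4 and 4 in Df(2L)J-H/+ haplo 4th, then 2 and 2 in it against Df(2L)J-H/+, 1 higher (RpL36A) in Dp(2;2)Cam3/+ triplo 4th, and 17 passed the F-test. The cause of these changes was not tested, except that a filter changes how many genes are adjusted over and that a shift moves every gene of an array alike.

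Replicate numbers did not pair the arrays: same-numbered arrays of different groups correlated at a median of -0.02 against 0.00 for other numbers, and 9 of 27 arrays correlated best with their own number. With the replicate block 0 RP genes were lower in Df(2L)J-H/+, and no other count moved by over 1.5 times.

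Leaving out 1 array gave 0 to 5, 2 to 7 and 1 to 8 higher and 0 to 2, 0 to 3 and 0 to 2 lower, 0 to 1 higher in haplo 4th, 0 to 1 higher and 0 to 1 lower in pof-mutant, 0 to 2 higher and 0 to 1 lower in Df(2L)J-H/+ haplo 4th, 0 to 1 lower there than in Df(2L)J-H/+ alone, and 8 to 13 in the F-test. The other counts stayed at 0. The highest counts came without pof-mutant replicate 2 (5, 7 and 8 higher) and the lowest in Df(2L)J-H/+ without its replicate 3 or wild type replicate 2 or 3 (0 higher) and in Df(3L)4470/+ without its replicate 2 (1 higher). No single gene's value turned. RpL41 and RpL39 in Df(2L)ED4651/+ and RpL41 in Df(3L)4470/+ passed in all 27 fits, while RpL37-1 in Df(2L)J-H/+ was lost in 18 and RpS30 in Df(3L)4470/+ in 15. Of the 34 expressed RP genes 29 had a wild type level above 13, where how far the array compresses differences was not tested.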

Other observations

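Translation factors other than ribosomal proteins were counted beside the shares of all genes. Of 31 expressed initiation factors 0 rose and 6 fell in the haplo 4th flies with the J-H deficiency (5.61% and 4.3% of all genes), among them eIF4G1, the scaffold of the cap-binding complex, at -1.20 (SE 0.12, limma adjusted p 2.3e-06), and eIF4G2 at -0.87 (SE 0.27, limma adjusted p 0.049). eIF4G1 lies on chromosome 4, of which that group has 1 copy. In the 3 deficiency groups 2, 2 and 2 rose and 2, 2 and 1 fell (11%, 13% and 9.76%, and 6.83%, 8.86% and 5.29% of all genes). In Df(2L)J-H/+ eIF2Bepsilon was at -0.83 (SE 0.16, limma adjusted p 0.0021), and in Df(3L)4470/+ eIF3j was at 0.66 (SE 0.11, limma adjusted p 0.00049). Of 4 expressed elongation factors 1 rose in each deficiency group, beside the same shares of all genes, in Df(3L)4470/+ eEF5 at 0.38 (SE 0.10, limma adjusted p 0.016). Among 16 cytosolic aminoacyl-tRNA synthetases, which charge tRNAs, 3 fell and 0 rose in Df(2L)ED4651/+ (8.86% and 13% of all genes), LysRS at -0.59, SerRS at -0.55 and ThrRS at -0.52. In Df(2L)J-H/+ 1 rose and 2 fell (11% and 6.83%), and in Df(3L)4470/+ 0 rose and 2 fell (9.76% and 5.29%). SerRS lies inside the run of the ED4651 deficiency and was at -0.93 against the other 2 deficiencies (SE 0.12, limma adjusted p 0.00023).

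Of 14 expressed regulators of growth and of the Minute response, 1 rose and 3 fell in Df(2L)ED4651/+ (13% and 8.86% of all genes) and 2 rose and 2 fell in Df(2L)J-H/+ (11% and 6.83%). Trf2, which in flies is used at promoters of RP genes, was at -1.38 in Df(2L)ED4651/+ (SE 0.32, limma adjusted p 0.0051), Dref, a promoter-binding factor of growth genes, at -0.87 (SE 0.28, limma adjusted p 0.033), and raptor, a subunit of the TOR complex, at 0.93 in Df(2L)J-H/+ (SE 0.29, limma adjusted p 0.034). Germline markers were lower in both groups, and their part in these values was not tested.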
